A study of Mus musculus with 12 samples.

Results

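RNA levels of 9 genes, most of which recruit or hold leukocytes, were followed across 4 groups of mouse samples. Each group was measured on 3 Illumina bead arrays (12 in all). The genes were the chemokines Cxcl9, Cxcl10, Ccl5, Ccl2, Cxcl1 and Cxcl12, the adhesion molecules Vcam1 and Icam1, and the TNF-induced gene Tnfaip2. Every probe annotated with a single symbol, current or former, that names one of these genes was taken, which gave 9 of 19057 annotated genes and 19 of 45281 probes. Liver tissue taken fresh and newly isolated hepatocytes were compared between IkkβF/F animals (Cre-negative, called FF) and IkkβDhep animals (Cre-positive and Ikkβ-deleted, called Dhep). All 12 arrays came from adult male C57BL6/J animals. The sample labels state that they were 4 to 6 weeks old, whereas the design text has 6 to 8 weeks. The sources used here do not name the promoter that drives Cre. The design text counts 4 mice and 4 RNA samples, so a group's 3 arrays were treated as repeats of 1 RNA sample. The p-values below therefore set one RNA sample against another and not genotypes in general.

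Chemokines are small secreted proteins that bind G protein-coupled receptors on leukocytes and direct their migration. Cxcl9 and Cxcl10 are interferon-inducible ligands of Cxcr3, which activated T and NK cells carry, Ccl5 attracts T cells and monocytes, Ccl2 acts through Ccr2, Cxcl1 attracts neutrophils through Cxcr2, and Cxcl12 is a homeostatic ligand of Cxcr4. Vcam1 and Icam1 are membrane proteins of the immunoglobulin superfamily that bind leukocyte integrins, which lets circulating cells adhere in the liver sinusoids. Ikkβ, encoded by Ikbkb, is the kinase that releases the transcription factor NF-κB from its inhibitor, and NF-κB and interferon-γ signalling are both known inducers of several of these genes.

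The promoter windows of 4 members are shown, out of 6 that were searched for κB, GAS and ISRE motifs. These motifs are known from genes induced by NF-κB and by interferons. Each is the 250 bases upstream of the start, 5′ to 3′ on the gene's own strand, from RefSeq on GRCm38.p6, with motif matches in capitals. Cxcl9 lies at chr5:92328080-92328329 (minus strand), Cxcl10 at chr5:92348890-92349139 (minus), Cxcl1 at chr5:90890995-90891244 (plus) and Icam1 at chr9:21015690-21015939 (plus).
Cxcl9: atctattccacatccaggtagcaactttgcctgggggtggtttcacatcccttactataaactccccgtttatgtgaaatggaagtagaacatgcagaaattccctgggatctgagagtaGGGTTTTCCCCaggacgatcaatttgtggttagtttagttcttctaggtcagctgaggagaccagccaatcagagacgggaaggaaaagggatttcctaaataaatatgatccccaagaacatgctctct
Cxcl10: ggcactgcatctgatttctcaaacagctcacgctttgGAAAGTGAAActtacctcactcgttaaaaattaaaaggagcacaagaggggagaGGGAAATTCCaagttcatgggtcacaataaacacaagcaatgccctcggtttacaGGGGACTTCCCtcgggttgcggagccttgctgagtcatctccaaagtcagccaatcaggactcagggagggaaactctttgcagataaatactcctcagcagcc
Cxcl1: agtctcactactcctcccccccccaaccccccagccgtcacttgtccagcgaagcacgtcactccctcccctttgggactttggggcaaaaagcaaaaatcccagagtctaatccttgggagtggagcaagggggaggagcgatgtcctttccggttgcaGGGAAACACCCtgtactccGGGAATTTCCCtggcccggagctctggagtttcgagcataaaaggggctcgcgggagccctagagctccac
Icam1: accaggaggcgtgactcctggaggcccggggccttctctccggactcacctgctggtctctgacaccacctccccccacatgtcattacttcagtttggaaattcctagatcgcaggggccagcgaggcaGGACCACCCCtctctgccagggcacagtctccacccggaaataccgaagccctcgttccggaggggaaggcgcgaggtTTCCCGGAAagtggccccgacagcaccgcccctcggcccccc
Both strands were searched, and windows were available for 6 of the 9 genes (these 4, Cxcl12 and Tnfaip2). The stricter κB pattern, GGG and TTTCC with any 2 bases between, was found in 1 of the 6, Cxcl1, where it lies 89 to 80 and 71 to 62 bases before the start. It occurs in 1.41% of the 32851 promoter windows of the table. The looser pattern, GGG and CC with any 5 bases between, which includes the stricter one and overlaps it in Cxcl1, was found in 6 of 6 and in 45.8% of all windows. In Cxcl9 its overlapping matches span 130 to 120 bases before the start, and in Cxcl10 they lie at 159 to 150 and 104 to 94. The windows of Cxcl12 and Tnfaip2, which are not shown, held the looser pattern alone, as did that of Cxcl9. The GAS pattern TTCNNNGAA was found in Icam1 alone of the 6, 42 to 34 bases before the start, and in 7.02% of all windows. The ISRE-like pattern, GAAA repeated after any 2 bases, was found in Cxcl10 alone of the 6, 213 to 204 bases before the start, and in 2.98% of all windows. These matches describe the letters of the windows only.

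Intensities were corrected for background, taken to log2 and quantile normalized, and all levels below are log2 normalized intensities of a gene's brightest probe unless another probe is named. A probe was kept when it exceeded a floor of 6.06, the median of all probe means, on every array of at least 1 group. Of the 19 probes 16 were kept, 13 of them above the floor in all 4 groups. The other 3 kept probes passed through a single group, Ccl2 through Dhep liver and a pair of dim Vcam1 probes through Dhep hepatocytes. The 3 probes below the filter were 2 of Cxcl12 and 1 of Vcam1. Between arrays Pearson's r over all probes, kept or not, was 0.997 to 0.998 within groups and 0.981 to 0.993 between groups. The raw 75th percentile per array ran from 75.5 to 119, lowest on the FF hepatocyte arrays. Ikbkb, the deleted gene, averaged 7.62 ± 0.07 in liver of FF and 7.47 ± 0.10 in liver of Dhep, and 7.35 ± 0.06 and 7.66 ± 0.03 in the hepatocytes (SD, n = 3 arrays). Where this probe (ILMN_2589556) binds relative to the deletion is not known here, so its level is no check of the labels. The hepatocyte markers were present in all 4 groups, with 9 of 10 genes kept and a summed intensity of 147030 to 161842 over the arrays. Most of that sum came from Ttr, Apoa1 and Cyp2e1, with group means of 14.96 to 15.14. Fgb was near the floor, at 6.17 to 6.36. The sum is no measure of purity.

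The first comparison asked how Dhep liver and Dhep hepatocytes differed from their FF counterparts in the 9 genes. In liver, Cxcl9 and Ccl5 rose and no member fell. In isolated hepatocytes, Cxcl9, Vcam1, Tnfaip2, Icam1 and Cxcl10 rose and again none fell. A gene was called when limma's Benjamini-Hochberg adjusted p over all 22859 kept probes was under 0.05 and the log2 difference was at least 1. By this rule 2 of 9 members were called higher in Dhep liver, where 0.508% of the 12010 measured genes were, and 0 were called lower, where 0.0999% were. In Dhep hepatocytes 5 of 9 were called higher, against 1.50% of genes, and 0 lower, against 1.22%. By adjusted p alone 7 members were higher in Dhep liver, against 12.5% of genes, and 0 were lower, against 17.2%. Ccl2, which passed the floor only through that group, is left out of the 7. In hepatocytes 7 were higher and 1 lower, against 28.1% and 27.7% of genes. The median log2 difference over the 9 genes was 0.66 in liver and 1.12 in hepatocytes, and over all genes it was -0.03 and -0.005. In RNA of whole preparations, fewer cells of a type and less RNA per cell cannot be told apart.

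**Figure D1:**
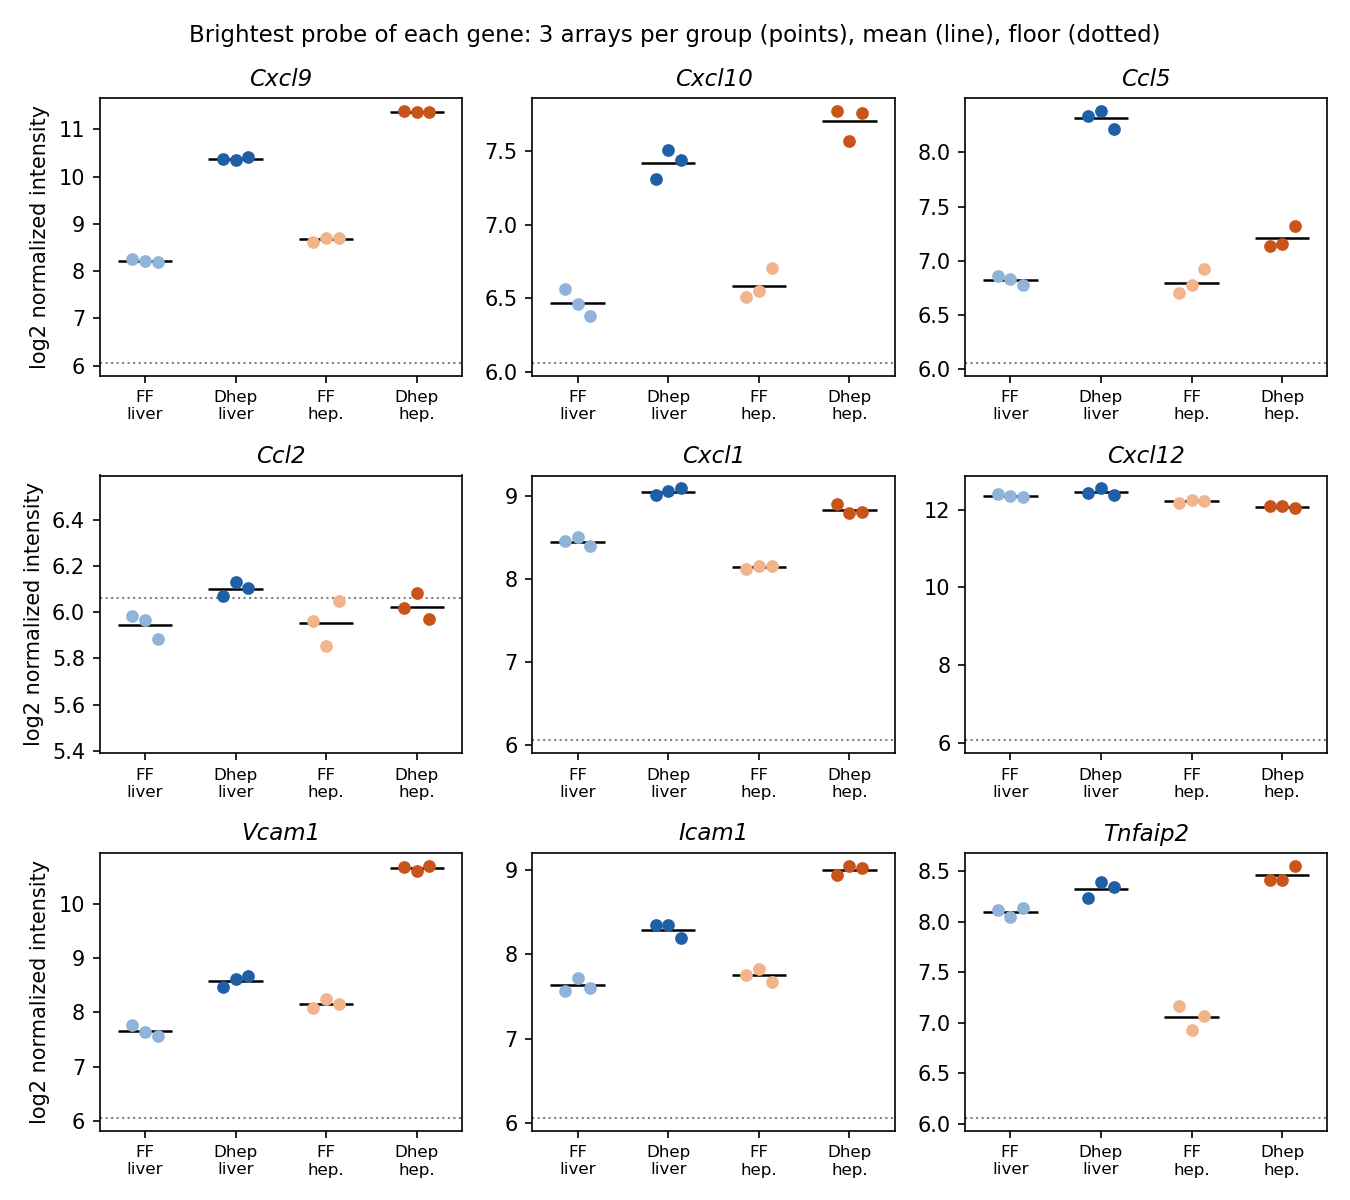
Log2 normalized intensity of the brightest probe of each gene, 1 panel per gene with its own axis range; points are the 3 arrays of each group, lines their means and the dotted line the floor of 6.06. The 3 Dhep hepatocyte arrays lie highest for Cxcl9, Cxcl10, Vcam1, Icam1 and Tnfaip2, and the 3 Dhep liver arrays lie highest for Ccl5 and Cxcl1.

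Cxcl9, the interferon-γ-induced T cell attractant, showed the widest genotype differences of the 9 genes in both preparations. Its log2 intensity (ILMN_1215862) was 8.25, 8.22 and 8.19 on the FF liver arrays and 10.37, 10.35 and 10.42 on the Dhep liver arrays. On the hepatocyte arrays it was 8.62, 8.69 and 8.70 in FF and 11.39, 11.36 and 11.37 in Dhep. After normalization the 4 groups did not overlap, and every Dhep array lay above every FF array. In the deposited raw intensities the same probe read 294 to 342 in FF liver and 1167 to 1471 in Dhep liver. The raw hepatocyte values were 277 to 319 in FF and 2668 to 3061 in Dhep. Before normalization the FF groups thus overlapped, with means of 313 in liver and 298 in hepatocytes, so their order depends on the normalization. The Dhep liver level was 4.47 times that of FF (log2 difference 2.16 ± 0.05 with limma's SE over 3 arrays per group, adjusted p = 9.85e-20). In hepatocytes it was 6.51-fold higher (2.70 ± 0.05, adjusted p = 3.23e-22). The genotype difference was larger in hepatocytes by 0.54 ± 0.07 (adjusted p = 1.67e-06), which is under the threshold of 1. With median scaling it was 1.08 and was called.

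Cxcl10, the second Cxcr3 ligand, whose window carries the ISRE-like match, was dimmer and moved less. Its brighter probe (ILMN_3142803) read 6.57, 6.46 and 6.38 in FF liver, 7.31, 7.51 and 7.44 in Dhep liver, 6.51, 6.55 and 6.70 in FF hepatocytes and 7.78, 7.57 and 7.76 in Dhep hepatocytes. The FF groups overlapped each other, and both Dhep groups lay above them. In hepatocytes the 2.17-fold difference was called (1.12 ± 0.07, adjusted p = 2.37e-12), although the mean of both Cxcl10 probes gave 0.92 and no call. In liver the difference was 0.95 ± 0.07 (adjusted p = 2.18e-10), under the threshold, and it passed 1 under other normalizations, at 1.14 without background correction and 1.19 in the authors' normalized table, and also without the first Dhep liver array (1.00). The dimmer probe (ILMN_1214419) had smaller differences, 0.46 in liver and 0.71 in hepatocytes. The genotype differences of the brighter probe in hepatocytes and liver differed by 0.17 ± 0.10 (adjusted p = 0.178).

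Ccl5, a T cell and monocyte attractant that activated T and NK cells and macrophages secrete, was highest in Dhep liver and lower in Dhep hepatocytes. Its single probe (ILMN_1231814) read 6.86, 6.83 and 6.78 in FF liver and 8.34, 8.38 and 8.21 in Dhep liver. In hepatocytes it read 6.70, 6.77 and 6.92 in FF and 7.14, 7.16 and 7.32 in Dhep. The Dhep liver arrays stood well above all others, the Dhep hepatocyte arrays came next, and the FF groups overlapped. Ccl5 was 2.80-fold higher in Dhep liver (1.49 ± 0.07, adjusted p = 1.30e-14). In hepatocytes the difference was 0.41 ± 0.07 (adjusted p = 1.16e-05), under the threshold. The genotype difference was smaller in hepatocytes by a called margin, a log2 difference of -1.08 ± 0.09 (adjusted p = 1.57e-09). With median scaling in place of quantile normalization that margin was -0.74 and not called.

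Ccl2, which attracts monocytes through Ccr2, was at the floor. Its probe (ILMN_1245710) read 5.98, 5.96 and 5.88 in FF liver, 6.07, 6.13 and 6.10 in Dhep liver, 5.96, 5.85 and 6.05 in FF hepatocytes and 6.02, 6.08 and 5.97 in Dhep hepatocytes. The 3 Dhep liver arrays were the only group with all arrays above 6.06, and they overlapped Dhep hepatocytes. No fold is given for a probe this dim, and a difference in Ccl2 was not detectable on these arrays.

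Cxcl1, the neutrophil attractant with the stricter κB matches in its window, had similar genotype differences in both preparations, and neither was called. Its probe (ILMN_2763245) read 8.46, 8.50 and 8.40 in FF liver and 9.01, 9.06 and 9.10 in Dhep liver. In hepatocytes it read 8.13, 8.16 and 8.16 in FF and 8.91, 8.80 and 8.81 in Dhep. All 4 groups were apart, with both Dhep groups above both FF groups. The differences were 0.60 ± 0.05 in liver (adjusted p = 7.81e-09) and 0.69 ± 0.05 in hepatocytes (adjusted p = 1.49e-10). The second became 1.16 and was called with median scaling. The genotype differences themselves differed by 0.08 ± 0.08 (adjusted p = 0.399).

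Cxcl12, the homeostatic chemokine that stromal cells are known to secrete, varied least of the members above the floor. Its brightest probe (ILMN_2658908) read 12.41, 12.36 and 12.32 in FF liver, 12.42, 12.56 and 12.39 in Dhep liver, 12.19, 12.25 and 12.24 in FF hepatocytes and 12.11, 12.10 and 12.04 in Dhep hepatocytes. The liver groups overlapped and the hepatocyte groups did not. The differences were 0.09 ± 0.06 in liver (adjusted p = 0.239) and -0.14 ± 0.06 in hepatocytes (adjusted p = 0.0375), and both turned sign with median scaling. The other 2 kept probes had larger differences in liver, at 0.41 ± 0.07 (ILMN_2737302) and 0.45 ± 0.06 (ILMN_3158250). In hepatocytes the same probes gave -0.06 and -0.34. No kept Cxcl12 probe was called for genotype.

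Vcam1, the ligand of integrin α4β1 on sinusoidal endothelium and Kupffer cells, was highest in Dhep hepatocytes. Its bright probe (ILMN_2778655) read 7.77, 7.65 and 7.58 in FF liver and 8.47, 8.62 and 8.66 in Dhep liver. In hepatocytes it read 8.08, 8.25 and 8.16 in FF and 10.67, 10.59 and 10.70 in Dhep. The Dhep hepatocyte arrays lay far above all others and the 4 groups did not overlap. In hepatocytes Vcam1 was 5.63-fold higher in Dhep (2.49 ± 0.06, adjusted p = 1.44e-19). In liver the difference was 0.92 ± 0.06 (adjusted p = 1.07e-10), which was not called here but reached 1.06 in the authors' normalized table. The genotype difference was larger in hepatocytes by 1.58 ± 0.09 (adjusted p = 1.85e-12). The other 3 Vcam1 probes had group means of 5.91 to 6.23, near the floor, and their differences in hepatocytes were 0.25 and 0.27 on the 2 kept ones. Those 2 had passed the filter only through Dhep hepatocytes. No call is read from the mean of the 3 kept probes, which was 1.01 in hepatocytes and 0.68 for the difference between preparations, because it includes levels at the floor.

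Icam1, the ligand of the leukocyte integrins LFA-1 and Mac-1, followed the same order of groups on its single probe (ILMN_2896601). It read 7.57, 7.72 and 7.61 in FF liver and 8.34, 8.34 and 8.19 in Dhep liver. In hepatocytes it read 7.76, 7.83 and 7.68 in FF and 8.94, 9.05 and 9.02 in Dhep. The FF groups overlapped, the Dhep liver arrays lay above them, and the Dhep hepatocyte arrays lay above those. Icam1 was 2.38-fold higher in Dhep hepatocytes (1.25 ± 0.06, adjusted p = 2.36e-14). In liver the difference was 0.66 ± 0.06 (adjusted p = 1.16e-08), not called. The genotype difference was larger in hepatocytes by 0.59, under the threshold, and with median scaling by 1.13, which was called.

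Tnfaip2, a TNF-induced gene linked to membrane nanotube formation, had its lowest levels in FF hepatocytes. Its brightest probe (ILMN_2841289) read 8.11, 8.04 and 8.14 in FF liver and 8.23, 8.40 and 8.34 in Dhep liver. In hepatocytes it read 7.17, 6.92 and 7.07 in FF and 8.41, 8.42 and 8.55 in Dhep. The FF hepatocyte arrays lay below all others, and the 4 groups did not overlap. Tnfaip2 was 2.65-fold higher in Dhep than in FF hepatocytes (1.41 ± 0.07, adjusted p = 8.60e-15). In liver the difference was 0.22 ± 0.07 (adjusted p = 0.0122), not called. The genotype difference was larger in hepatocytes by 1.18 (adjusted p = 2.91e-10). The other 2 probes had the same low point, with hepatocyte differences of 1.35 (ILMN_2474858) and 0.85 (ILMN_2841290).

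**Figure D2:**
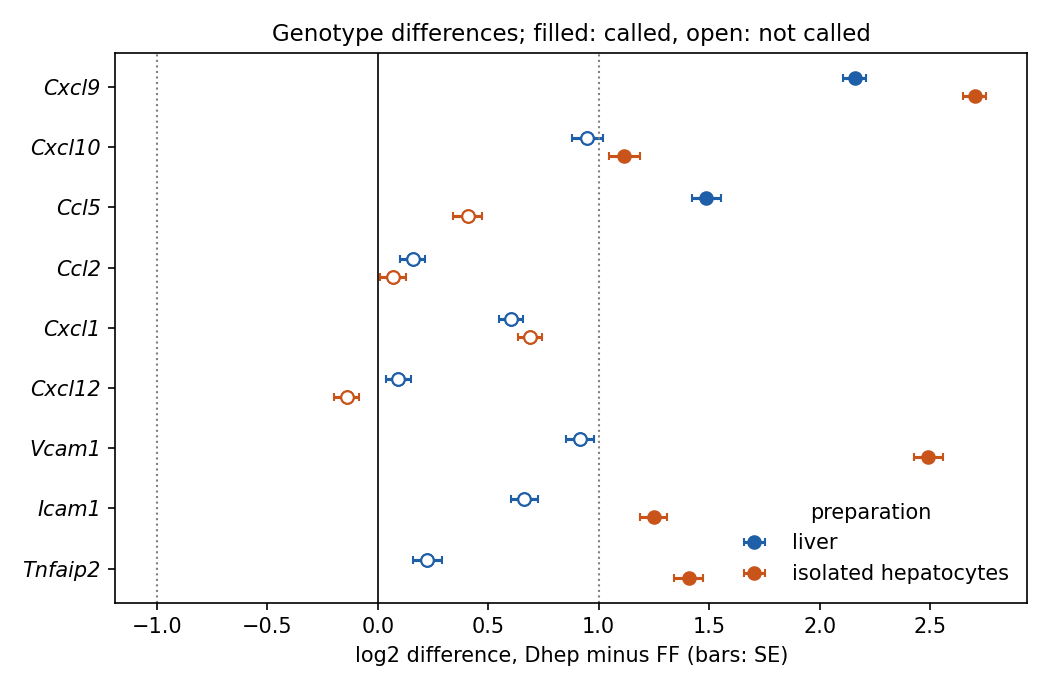
Log2 difference Dhep minus FF of the brightest probe of each gene in liver (blue) and isolated hepatocytes (orange), with SE bars from limma over 3 arrays per group; filled points were called, open points were not, and dotted lines mark -1 and 1. Cxcl9 lies past 2 in both preparations, Ccl5 past 1 in liver alone, and Cxcl10, Vcam1, Icam1 and Tnfaip2 past 1 in hepatocytes alone.

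The differences above compare 1 RNA sample with another. In the 2 fits below, each genotype has 1 liver and 1 hepatocyte RNA sample. The spread in these fits is therefore no measure of the variation between mice within a preparation. When each RNA sample was counted once, with 2 RNA samples per genotype and preparation as a term, limma called 0 members for genotype, and 0 genes at all (0%). By unadjusted p under 0.05, 6 of 9 members were higher in Dhep, against 3.53% of genes, and 0 were lower, against 1.89%. Cxcl9 had a mean difference of 2.43 (unadjusted p = 0.000485, adjusted p = 0.901) and Cxcl10 of 1.03 (unadjusted p = 0.00151). The others were Cxcl1 at 0.65, Icam1 at 0.96, Vcam1 at 1.70 and Ccl5 at 0.95. With all arrays and the RNA sample as a random block, limma called 3 members higher, Cxcl9, Cxcl10 and Vcam1, against 0.791% of genes, and 0 lower, against 0.125%.

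The second comparison set isolated hepatocytes against liver of the same genotype. In FF no member was called higher, against 0.841% of genes, and Tnfaip2 fell, which made 1 of 9 called lower against 0.225% of genes. Its log2 difference was -1.04 ± 0.07 (adjusted p = 3.63e-12), and it was -0.89 with cyclic loess, -0.79 over the mean of its 3 probes and -0.98 without the second FF hepatocyte array, none of them called. By adjusted p alone 2 members were higher in FF hepatocytes and 3 lower, against 21.1% and 28.7% of genes. In Dhep 1 member rose, against 0.641% of genes, and 1 fell, against 0.624%. Vcam1 was 4.21-fold higher in Dhep hepatocytes than in Dhep liver (2.07 ± 0.06, adjusted p = 2.13e-17). The mean of its 3 kept probes, 2 of them at the floor in liver, gave 0.85. Ccl5 was 2.15-fold lower (-1.10 ± 0.07, adjusted p = 2.16e-12), and -0.95 and not called with median scaling. By adjusted p alone 4 were higher and 3 lower in Dhep hepatocytes, against 23.5% and 22.7% of genes. Cxcl9 stood just under the threshold in Dhep, at 0.996, and at 0.45 in FF. It was called in Dhep without the third liver array (1.02) or without the second hepatocyte array (1.00). Over the RNA means, 0 members were called for isolation (0% of genes), and 1, Cxcl9 at 0.72, had an unadjusted p under 0.05 in the higher direction, against 4.98% of genes. In the lower direction 0 did, against 3.75%. The random block called 1 member higher, Vcam1, against 0.308% of genes, and 0 lower, against 0.108%.

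The difference between the genotype differences was called for 3 members. Vcam1 and Tnfaip2 had the larger genotype difference in hepatocytes (2 of 9, against 0.891% of genes), and Ccl5 had it in liver (1 of 9, against 1.57% of genes). By adjusted p alone 4 members had the larger difference in hepatocytes and 2 in liver, against 25.5% and 21.6% of genes. With median scaling 4 members, Vcam1, Tnfaip2, Cxcl9 and Icam1, were called with the larger difference in hepatocytes, where 9.90% of genes were, and 0 in liver, where 0.392% were, so that Ccl5 was no longer called. The 2 genotype comparisons have no array in common.

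**Figure D3:**
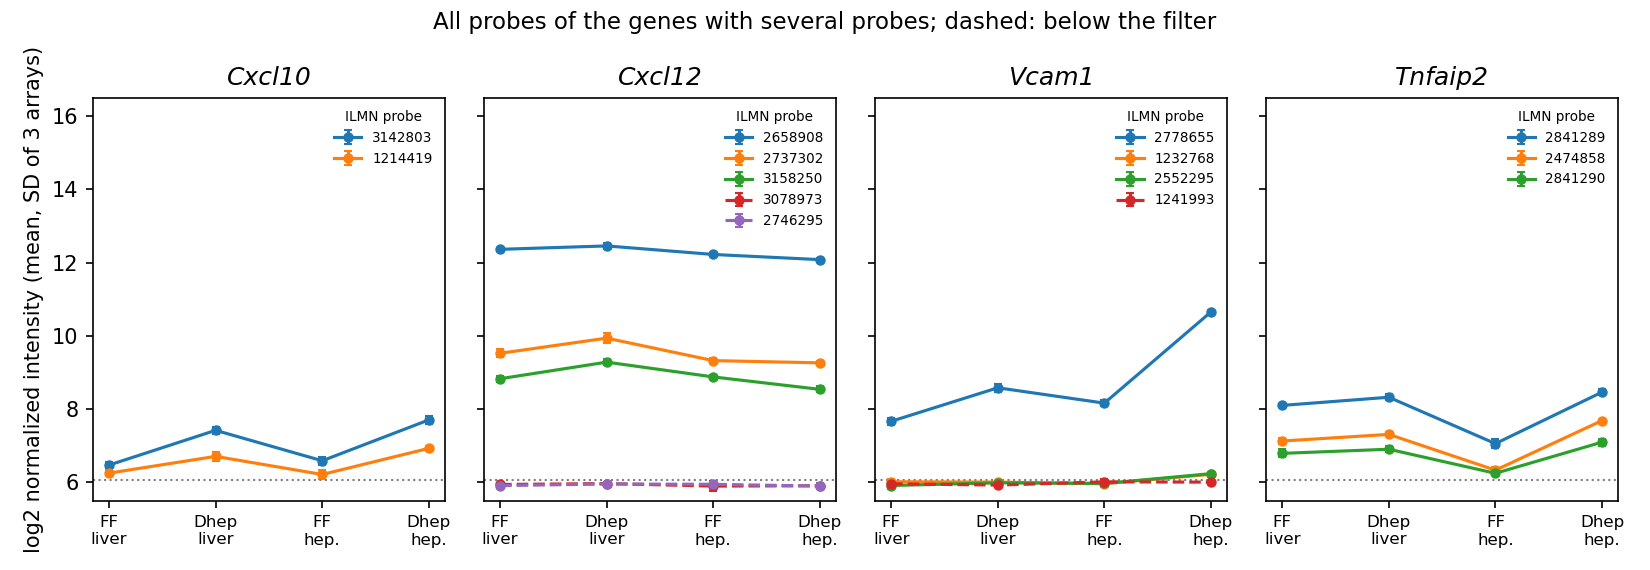
Mean log2 normalized intensity with SD over 3 arrays for every probe of the 4 genes with several probes, by group; dashed lines are probes below the filter and the dotted line is the floor of 6.06. The probes of Tnfaip2 keep the same order of groups, whereas the dim Vcam1 probes stay near the floor at 5.91 to 6.23 while the bright one reaches 10.65.

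Of the members' receptors, Cxcr3, Cxcr4, Ccr2, Cxcr2 and Ackr3 were near or below the floor. Cxcr3, the receptor of Cxcl9 and Cxcl10, averaged 6.08 (FF) and 6.24 (Dhep) in liver and 6.15 (FF) and 6.17 (Dhep) in hepatocytes. Ccr2, Cxcr2, Ackr3 and Itgam had no kept probe, and Cxcr4 had means of 6.10 to 6.24. Ackr2, a scavenging receptor that binds Ccl2 and Ccl5, was above the floor, with means of 7.00 (FF) and 7.14 (Dhep) in liver and 7.38 (FF) and 6.74 (Dhep) in hepatocytes, and was not called for genotype. Among integrin chains, Itgal, the α chain of LFA-1, had means of 6.41, 6.87, 6.36 and 7.13 in FF liver, Dhep liver, FF hepatocytes and Dhep hepatocytes, and its partner Itgb2 had 6.20, 6.52, 6.17 and 6.89. The differences in hepatocytes were 0.78 for Itgal and 0.71 for Itgb2, neither called. Itga4, the α chain of the Vcam1 receptor, stayed at 6.00 to 6.12. Its partner Itgb1 had a difference of -0.65 in hepatocytes on its brightest probe, not called. The dimmer kept Itgb1 probe (ILMN_2789077) averaged 6.77 in FF and 6.70 in Dhep hepatocytes and did not share that difference.

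Most other genes of the chemokine and adhesion families were not called, as was the case for genes in general. Of all 12010 genes 0.508% were called higher in Dhep liver and 1.50% in Dhep hepatocytes, and 0.0999% and 1.22% lower. Of 31 other chemokine ligands 18 were measured, and 1 rose in each preparation. These were Cxcl13, a B cell attractant, in liver (1.42) and Ccl24, an eosinophil attractant, in hepatocytes (1.12). The list's median difference was 0.02 in liver and -0.10 in hepatocytes. Of 23 chemokine receptors 9 were measured and 0 were called in either preparation, with medians of 0.004 and 0.07. Of 29 other adhesion genes 21 were measured, with 0 called in liver. In hepatocytes the hyaluronan receptor Cd44 rose (1.96) and the endothelial adhesion molecule Esam fell (-1.22), with a list median of -0.05.

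Genes known to respond to interferon-γ and to NF-κB were counted beside the members. Over all genes 0.508% were called higher in Dhep liver and 1.50% in Dhep hepatocytes, and 0.0999% and 1.22% lower. Of 20 interferon-γ-responsive genes 19 were measured, of which 9 rose in Dhep liver and 16 in Dhep hepatocytes, and 0 fell in either. Of the 19, 2 were at or below the floor on all FF liver arrays and 3 on all FF hepatocyte arrays. In the Dhep groups 0 were. Genes at the floor in FF had no room to fall, so the counts of 9, 16 and 0 are not free of the filter. Tgtp1, named below, averaged 6.00 in FF hepatocytes, under the floor of 6.06. The list's median was 0.93 in liver and 2.19 in hepatocytes. The GTPase Igtp (1.79) and the immunoproteasome subunits Psmb8 (1.76) and Psmb9 (1.69) led in liver, and the guanylate-binding protein Gbp2b (3.56), the interferon-inducible GTPase Tgtp1 (3.46) and the guanylate-binding protein Gbp3 (3.10) in hepatocytes. Of 22 NF-κB-responsive genes 18 were measured, with a median of 0.10 in liver and 0.13 in hepatocytes. The siderophore-binding protein Lcn2 (1.89 and 3.07) and the acute phase gene Saa3 (1.70 and 1.38) rose in both preparations. The interferon-γ receptor chain Ifngr2 fell in hepatocytes (-2.03), where it averaged 9.89 in FF and 7.86 in Dhep. Its liver means were 7.54 in FF and 7.90 in Dhep, so only FF hepatocytes stood high and Dhep hepatocytes were near the liver level.

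**Figure D4:**
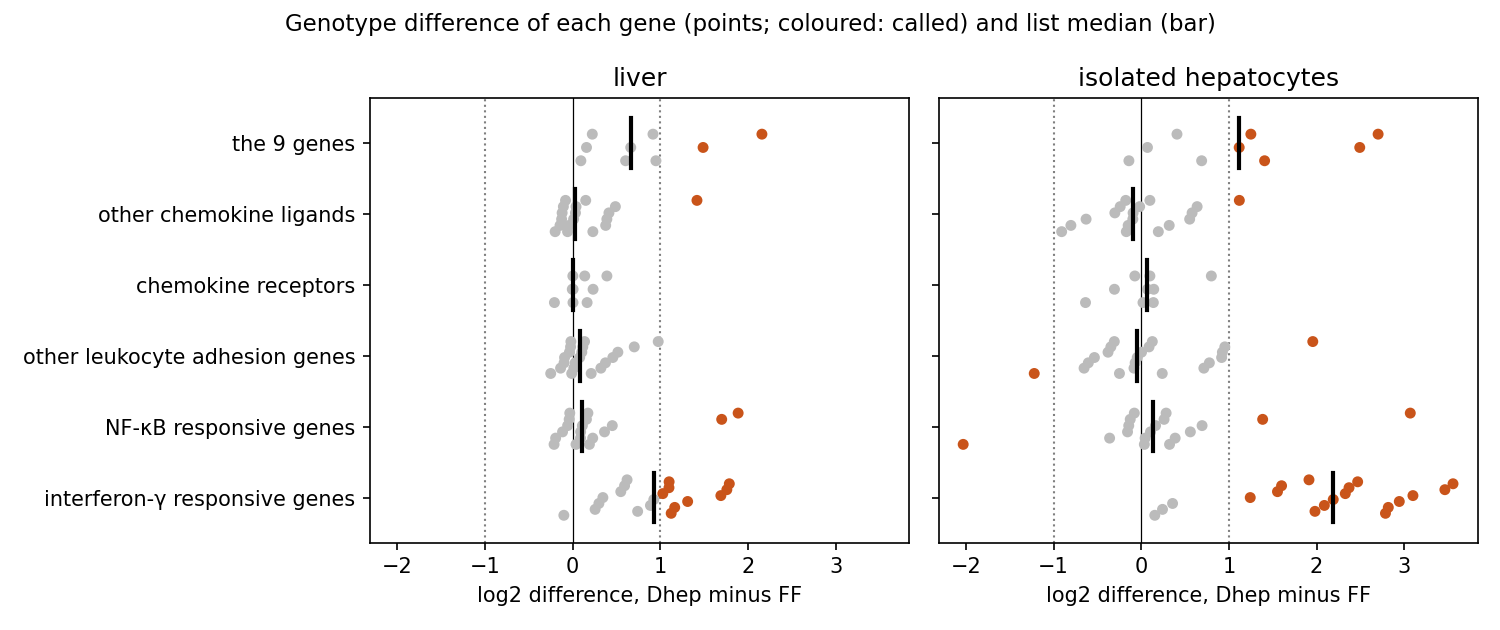
Log2 difference Dhep minus FF of each measured gene (points, coloured where called) in liver and in isolated hepatocytes, for the 9 genes and 5 lists; bars are list medians and dotted lines mark -1 and 1. The 9 genes have medians of 0.66 and 1.12, the interferon-γ-responsive genes 0.93 and 2.19, and the other 4 lists between -0.10 and 0.13.

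Among markers of other liver cells, the summed Kupffer cell and macrophage list was higher in Dhep than in FF in both preparations. Of 12 Kupffer cell and macrophage markers 10 were kept. Of these 7 rose in Dhep liver, against 0.508% of all genes, and 8 in Dhep hepatocytes, against 1.50%. The medians of the 10 markers were 1.21 and 1.85. Their summed intensity was 5415 to 5495 in FF liver, 12109 to 12482 in Dhep liver, 5036 to 5110 in FF hepatocytes and 18771 to 19441 in Dhep hepatocytes. The hepatocyte preparations thus carried macrophage markers, including the Kupffer cell genes Clec4f at 9.16 in FF and 10.01 in Dhep and Vsig4 at 9.42 and 11.09. The sum was highest in the group in which Cxcl9, Cxcl10, Vcam1, Icam1 and Tnfaip2 were highest, and its part in their differences was not tested.

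Endothelial and stellate markers moved the other way in Dhep hepatocytes. Of 11 sinusoidal endothelial markers, all kept, 4 fell in hepatocytes, against 1.22% of all genes. In liver 0 were called, where 0.508% of all genes were higher and 0.0999% lower. The medians of the 11 markers were 0.17 in liver and -0.79 in hepatocytes. Their sum was 7397 to 7639 in FF liver, 8502 to 8703 in Dhep liver, 8777 to 9069 in FF hepatocytes and 4740 to 4970 in Dhep hepatocytes, the group with the highest Vcam1 and Icam1. Of 11 stellate cell and fibroblast markers 4 fell in hepatocytes, against the same 1.22% of genes. The sum of the 11 was 8593 to 8876 in FF and 4150 to 4413 in Dhep hepatocytes. The T and NK cell markers, 6 of 12 kept and none called, summed to 412 to 437 in FF liver and 498 to 520 in Dhep liver, where Ccl5 was highest. Their sum was 392 to 412 in FF and 432 to 439 in Dhep hepatocytes. These 6 markers had group means of 5.91 to 6.85, near the floor of 6.06. A probe at the floor has a linear intensity of 66.7, so much of each sum was signal at the floor. Cd3g and Cd3e, chains of the T cell receptor complex, had liver differences of 0.56 and 0.39, and Cd8a, Cd4, Gzmb and Ncr1 were below the filter. The neutrophil markers, 6 of 8 kept, had sums of 423 to 442 in FF liver and 560 to 574 in Dhep liver, and 414 to 445 and 554 to 557 in hepatocytes. Of these 6 only S100a8 was called, with differences of 1.13 in liver and 1.31 in hepatocytes, and S100a9 had 0.71 and 0.49. Mpo, Elane, Camp and Ltf, with group means of 6.02 to 6.18 near the floor, had differences between -0.12 and 0.14. The list's medians were 0.07 and -0.02. The part of these cells in the members' differences was not tested.

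**Figure D5:**
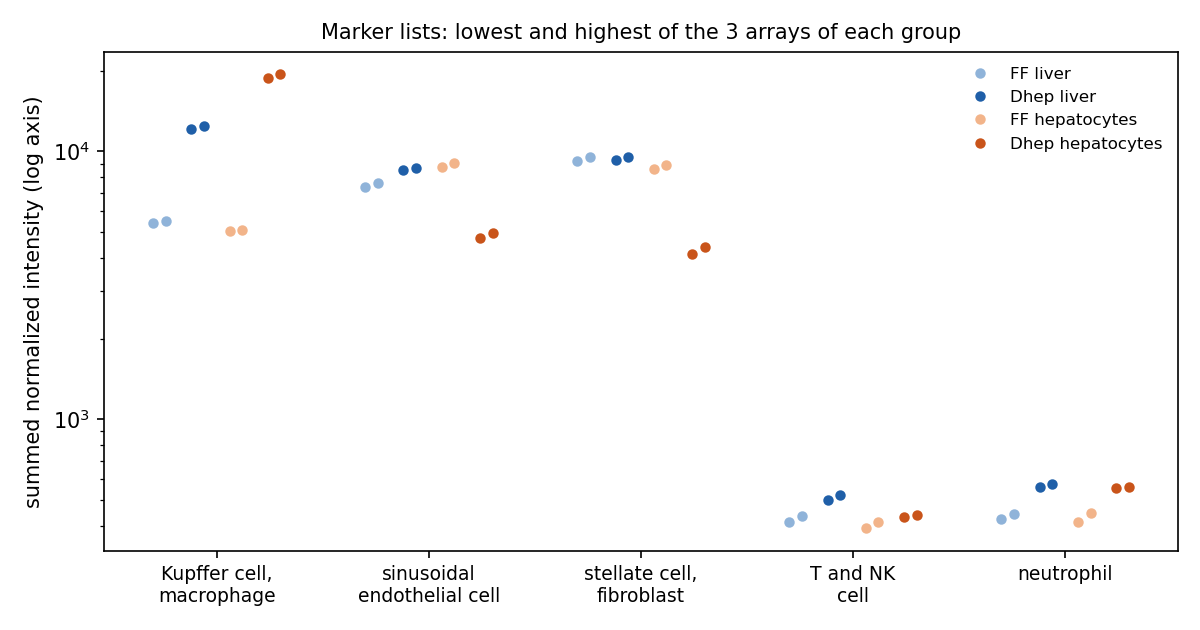
Summed normalized intensity (log axis) of the kept markers of 5 cell types, with the lowest and the highest of the 3 arrays of each group as points. The Kupffer cell sum is highest in Dhep hepatocytes, at 18771 to 19441, where the endothelial and stellate sums are lowest, at 4740 to 4970 and 4150 to 4413.

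For each member whose group means spanned at least 1, the 3 genes nearest in pattern were found among the other 12009 genes, by the root mean square distance between the 12 log2 values after each probe was centred on its own mean. Nearest to Cxcl9 were Eif4e3 (0.22), Serpina3f (0.25) and Lcn2 (0.25). Nearest to Cxcl10 were Psmb10 (0.10), the properdin gene Cfp (0.11) and the complement gene C1qa (0.11). Ccl5 lay nearest to Socs3 (0.13), an inhibitor of cytokine signalling, which averaged 7.55 and 9.03 in FF and Dhep liver and 7.35 and 7.72 in FF and Dhep hepatocytes. Foxq1 (0.22) and Ube2l6 (0.27) followed. Vcam1 lay nearest to the interferon-inducible genes Gbp2, Irgm2 and Tap1, each at 0.28. Icam1 lay nearest to the cyclin gene Ccnd1 (0.10), Samhd1 (0.11) and D17H6S56E-5 (0.11). Tnfaip2 lay nearest to the elongation factor gene Eef2 (0.17), Pik3ap1 (0.18) and Litaf (0.18). The distances rest on 12 arrays of 4 RNA samples and describe likeness of pattern only.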

How the data were processed

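RNA of liver and freshly isolated hepatocytes was measured on 12 bead arrays. The authors' deposited raw table gives a linear intensity for every probe, not normalized. A second deposited table gives intensity values that the authors normalized, by a method the sources used here do not state. BeadStudio is named in the submitters' processing notes. The raw table carries no detection p. Array medians of the raw values lay between 41.0 and 53.8. Precision is limited by how few arrays and mice there were.

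Background was corrected with normexp at an offset of 50, and log2 values were then quantile normalized (limma 3.58.1 and statmod 1.5.0 in R 4.3.3). Python 3.11.15 and matplotlib 3.10.9 made the plots. The filter kept 22859 of 45281 probes (50.5%). Of all probes 34885 had 1 symbol, 18 several and 10378 none. A gene was represented by its brightest kept probe. Differences came from limma's lmFit and eBayes on the 12 arrays with a mean for each of 4 groups (residual df 8, prior df 14.8). The 4 RNA means were fitted with genotype and preparation as terms (residual df 1, prior df 2.33), and a random RNA block used duplicateCorrelation (correlation 0.566). The 9 members and all lists were chosen with earlier results of these data known. Named genes were the members, Ikbkb, the members' receptors and integrins, up to 4 called genes of each list with the largest difference, and the nearest 3 genes by pattern. Cd3g, Cd3e, Clec4f, Vsig4, Ackr2 and the neutrophil markers were named after their values were seen.

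In simulated data of 22859 probes, 50 of 50 changed probes were called at a log2 difference of 1.6 in liver, with 0 false calls. Over RNA means 37 of 50 were called, with 13 false calls. Each group had only repeat arrays of the same RNA sample, so variation between mice could not be estimated for the simulation. The counts therefore do not show how often a genotype call would hold in other mice.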

Additional observations from a re-analysis of the deposited data

Results flagged for a closer look

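The 3 members that follow had genotype differences that differed between isolated hepatocytes and liver, by limma's test of that difference over 3 arrays per group. The value for Vcam1 was 1.58 (hepatocytes minus liver, log2), from 0.92 in liver and 2.49 in hepatocytes. For Tnfaip2 it was 1.18, from 0.22 and 1.41. For Ccl5 it was -1.08, from 1.49 in liver and 0.41 in hepatocytes. Each value rests on 1 RNA sample per group.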

How the results depend on the processing

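Results were recomputed without background correction, with an offset of 16, with median scaling, cyclic loess or the authors' normalized values, with other filters, priors and probe rules, with fewer groups and without each array. Of the single differences 1097 values kept their direction and call, 41 were newly called, 8 were no longer called and 10 turned sign. The 41 include calls made with no fold threshold, where the difference itself was unchanged. Of 129 counts of called members 115 stayed within 1.5 times. The members called in liver, 2, became 4 with an offset of 16, with the authors' table and with cyclic loess, and 8 with no fold threshold, Ccl2 at the floor among them. With no fold threshold the counts were 8 for genotype in hepatocytes (from 5), 5 for isolation in FF (from 1) and 7 for isolation in Dhep (from 2). For the difference between genotype differences the count was 6 (from 3). That rule called 12.5% of all genes higher and 17.2% lower for genotype in liver, and 28.1% and 27.7% in hepatocytes. For isolation it called 21.1% and 28.7% of genes in FF and 23.5% and 22.7% in Dhep. For the difference between genotype differences it called 25.5% and 21.6%. Isolation in FF gave 0 with cyclic loess and over the mean of all kept probes, and 0 to 1 when single arrays were left out. Isolation in Dhep gave 1 over the mean of all kept probes. The random RNA block called 3 members for genotype and 1 for isolation, against 0. Median scaling turned Cxcl12 to -0.14 in liver, 0.10 in hepatocytes and 0.24 for their difference, and for isolation in FF turned Cxcl10 to -0.0038 and Icam1 to -0.24. For isolation in FF, Ccl5 turned to 0.11 in the authors' table, 0.15 with cyclic loess and with single arrays left out it ran from -0.086 to 0.025 and Ccl2 from -0.037 to 0.061. The causes were not tested. Median scaling moved the median of all probes to 0.17 in hepatocytes, -0.15 for isolation in FF and 0.23 for the difference between genotype differences. It called 523 genes higher and 40 lower in hepatocytes (180 and 146 with quantile normalization), and 44 and 19 in liver (61 and 12). For isolation it called 41 and 340 in FF (101 and 27) and 112 and 50 in Dhep (77 and 75), and 1187 and 47 for the difference between genotype differences (107 and 188), where cyclic loess called 68 and 237. For that difference median scaling called 4 members higher and 0 lower (2 and 1 with quantile normalization). Equal replicate numbers did not pair arrays (18 pairs, correlations of -0.05 to 0.07), and with the replicate number as a block the counts of members called stayed at 2, 5, 1, 2 and 3. Probes near the floor, as for Ccl2 and the dim Vcam1 probes, allow no statement on small differences.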

Other observations

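Cxcl13, which attracts B cells through Cxcr5, averaged 6.37 (FF) and 7.79 (Dhep) in liver and 6.91 (FF) and 6.89 (Dhep) in hepatocytes on the log2 scale. Dhep liver was thus its highest group, as it was for Ccl5. Ccl24, an eosinophil attractant, averaged 6.55, 6.96, 6.48 and 7.60 in the same order, with its highest mean in Dhep hepatocytes. The selectin ligand Selplg had genotype differences of 0.70 in liver and 0.95 in hepatocytes, neither called. Selplg was picked after its values were seen.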
